A study of Mus musculus with 16 samples.

Results

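Macrophages washed from the airspaces of the lung by bronchoalveolar lavage (BAL) were compared between Toll-like receptor 3 knockout mice (TLR3-KO) and wild-type mice (WT), over uninfected mice and mice with pneumonia together. All 16 libraries of the count table entered: 8 TLR3-KO against 8 WT, with infection state as a covariate. A gene was taken as shared by the states when its genotype coefficient had an adjusted p under 0.05 (edgeR's quasi-likelihood test, Benjamini-Hochberg adjustment over the 12455 genes tested), when its fitted difference had the same sign in uninfected and in infected libraries, and when it lay on an autosome. Of 202 genes that passed (1.62% of genes tested), 200 of 11988 autosomal genes were shared by this rule (1.67%). The rule takes the call and the direction from the same 16 libraries, and no further libraries were held back.

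The 4 groups held 4 libraries each: WT controls, TLR3-KO controls, WT injured and TLR3-KO injured libraries, where the titles use injured for mice with pneumonia. Pneumonia was induced with Klebsiella pneumoniae (strain 43816, serotype 2), given as 500 CFU in 30 µl into the deep hypopharynx under isoflurane; the protocol names saline as the other inoculum, while the controls' own treatment field says none. The sources used here give no mouse strain, knockout allele, age or interval between infection and lavage. No label ties a library to a single mouse, so p-values measure the spread between these libraries, which may be technical.

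TLR3 is an endosomal receptor that binds double-stranded RNA. It signals through the adaptor TRIF (gene Ticam1) and the kinase TBK1 to the transcription factor IRF3, which switches on interferon-beta, and through RIPK1 and TAK1 to NF-kB. Alveolar macrophages carry the receptor and are the resident phagocytes of the airspaces.

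Libraries held 29667102 to 59640251 counts over 23159 gene symbols, of which 12455 passed the filter on low counts. Macrophage markers summed to 31670 to 42590 CPM (counts scaled to a common library total) and alveolar macrophage genes to 23040 to 28530 CPM. Lyz2 made up 84.9% of the macrophage marker sum. T and NK cell markers summed to at most 31.0 CPM and B cell markers to at most 45.1 CPM. Neutrophil markers reached 529 CPM and erythroid markers 710.0 CPM. Listed symbols without counts add nothing: 8 of 12 B cell, 20 of 23 T and NK cell and 10 of 12 macrophage symbols were present. The series title speaks of male mice, but TLR3-KO controls 1, 2 and 3 held Xist, the X-inactivation RNA, at 42.3, 31.6 and 20.3 CPM with Y-linked transcripts at 0.392%, 0.598% and 12.0% of the median library. The other 13 libraries held Xist at no more than 0.23 CPM and Y-linked transcripts at 84.3% of the median or more. TLR3-KO control replicate 4 was among these 13, and the comparisons were also fitted without the other 3 TLR3-KO controls.

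Of the 200 shared genes, 108 were higher in TLR3-KO macrophages (0.901% of autosomal genes tested) and 92 were lower (0.767%). Higher genes were mostly of low abundance, with a median of 4.68 CPM and a median log2 difference of 0.83, while lower genes had a median of 83.9 CPM and a median size of 0.50 on the same scale. The difference was at least 2-fold in 45 higher and 13 lower genes. In 43 of the 200, no TLR3-KO library overlapped any WT library (background: 54 of 11988 autosomal genes, 0.45%, and 0.458% of all genes tested). TLR3-KO and WT did not overlap within the controls in 127 (background 8.13% of all genes tested) and within the injured libraries in 147 (background 12.3%). The 200 were selected by the genotype test on these same libraries, so a share above the background follows from the selection.

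The plot of the genotype difference in controls against that after pneumonia shows how the shared genes are spread. The difference was the larger in controls for 105 shared genes and the larger after pneumonia for 95. Tested within each state, the genotype difference passed in 87 genes in controls (0.699% of genes tested) and in 77 after pneumonia (0.618%). The first count was 894 when libraries of the same number were paired, and was 15 without TLR3-KO controls 1, 2 and 3 and ran from 17 to 467 when single libraries were left out; the second ran from 17 to 450. Of the shared genes, 18 passed in each state (19 of 12455 genes tested, 0.153%) and 131 passed in neither alone. The genotype-by-state interaction called 0 genes in edgeR and in limma voom and 98 in DESeq2. At an unadjusted p under 0.05 edgeR gave 2217 genes (17.8%), among them 13 of the 200 shared genes (6.5%). The rule for sharing selects against genes with unlike differences in the states, so the lower share among shared genes is no result about them. A p that misses the threshold does not show equal differences in the states.

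**Figure D1:**
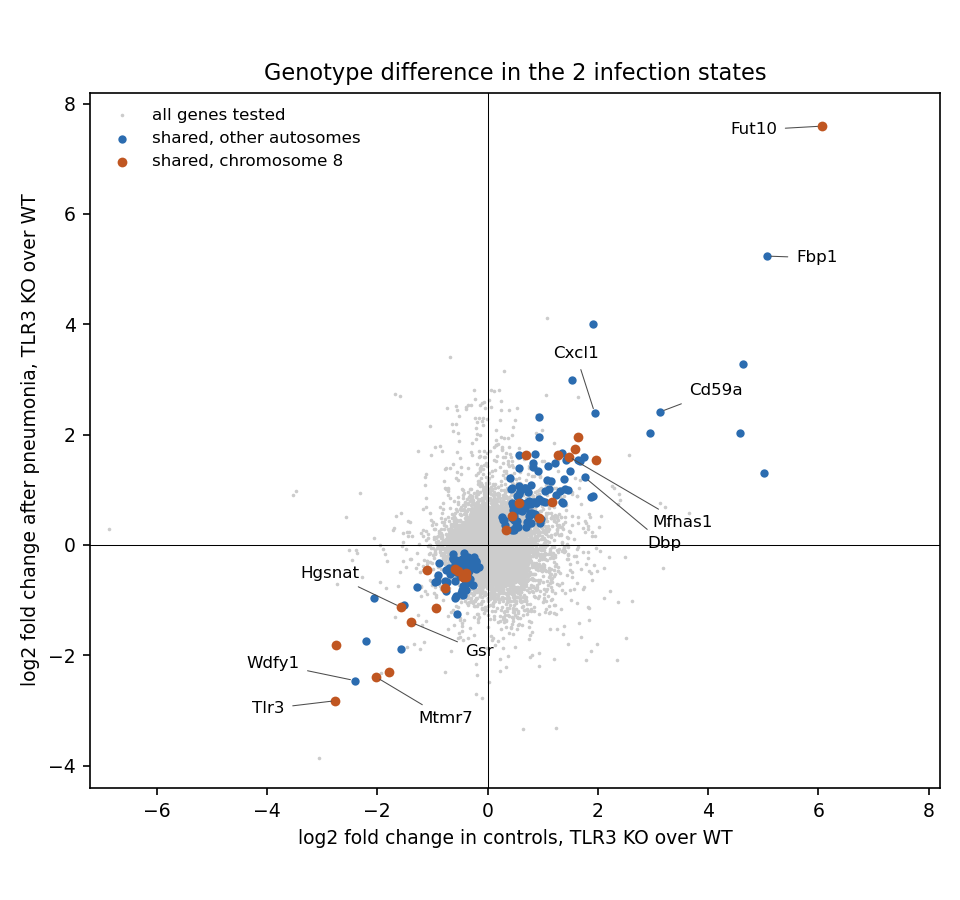
Fitted log2 fold change of TLR3-KO over WT in controls (horizontal axis) and after pneumonia (vertical axis) for all genes tested (grey), shared genes on chromosome 8 (orange) and shared genes on other autosomes (blue). By the rule every shared gene lies in the lower left or upper right part of the plot; Fut10 lies at 6.06 and 7.59, and Tlr3, Wdfy1 and Mtmr7 lie below -2 in each state.

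The count of 200 moved with single libraries. Without WT injured replicate 1 the count was 591 and without WT injured replicate 2 it was 94. It lay between 95 and 121 without WT control replicate 2, WT injured replicate 3, TLR3-KO control replicates 1 or 2, or TLR3-KO injured replicates 1, 2 or 3. Without TLR3-KO controls 1, 2 and 3 together it was 68, of which 50 were among the 200. The directions are no measure of stability, because the rule fixed them on the same libraries. A core of 33 genes was called in every one of 16 fits that left out a library and in 9 other fits. These 9 included the fits without the 3 libraries with Xist and with an estimated share of RNA from female mice as a covariate. That share was read from Y-linked transcripts alone, as their shortfall from the median library. Libraries without Xist could therefore receive a share too, such as WT control replicate 3 with Y-linked transcripts at 84.3% of the median. The 9 left aside the filter at 5 CPM and the stricter rules that ask for a call in each state or take the larger p of the states. Several core genes, such as Aga and Hopx, did not pass in each state separately. In this core, 15 genes were higher and 18 lower, and 16 lay on chromosome 8. Of the genes named below, 3000002C10Rik, AI316807, C2, Casp1, Cldn23, Cry2, Cxcl1, Dnahc11, Fam149a, Fcrls, Gbp6, Gdpd1, Gm98, Hpgd, Klhl36, Lyl1, Mmp13, Mmp8, Ppp1r3b, Ppp2cb, Smad6, Tef and Vps37a were not called without the 3 libraries with Xist. Among the 200, 44 overlap a gene on the other strand in the annotation, and the sources used here do not say whether counting used the strand.

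Tlr3 itself (chr8:45395665-45411080, minus strand in mm10) was the shared gene with the most negative difference. It was at 2.18, 2.67, 4.53 and 4.52 CPM in the WT controls and 0.687, 0.274, 0.717 and 0.437 CPM in the TLR3-KO controls. It was at 2.35, 3.20, 3.93 and 4.27 CPM in the WT injured and 0.353, 0.677, 0.472 and 0.464 CPM in the TLR3-KO injured libraries, which is 13 to 34 counts in the TLR3-KO libraries against 91 to 226 in WT. No TLR3-KO library reached any WT library, and reads over the gene were present in every TLR3-KO library; which part of the gene they cover cannot be read from gene counts. The fitted log2 difference was -2.79 (SE 0.23, adjusted p = 2.15e-06). Here and below, SE is the size of the log2 difference divided by the square root of the quasi-likelihood test's F statistic. It is therefore a value worked back from the test. An exact two-sided permutation test of mean CPM within states gave p = 0.000408, the smallest that its 4900 arrangements allow. Without TLR3-KO controls 1, 2 and 3 Tlr3 was still called.

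Wdfy1 (chr1:79702262-79776143, minus strand), which encodes an endosomal protein known to recruit TRIF to TLR3 and TLR4, had the smallest adjusted p of all genes. It was at 71.3, 70.0, 64.1 and 71.2 CPM in the WT controls and 10.4, 14.2, 12.9 and 17.8 CPM in the TLR3-KO controls. It was at 67.2, 68.7, 69.4 and 64.0 CPM in the WT injured and 12.0, 10.9, 12.3 and 14.8 CPM in the TLR3-KO injured libraries. The genotypes stood far apart, with WT at 64.0 to 71.3 CPM and TLR3-KO at 10.4 to 17.8 CPM. The log2 difference was -2.44 (SE 0.09, adjusted p = 2.65e-11), -2.41 in controls and -2.46 after pneumonia. Wdfy1 is also in the list of genes known to differ between mouse strains, so a difference of strain background and the knockout cannot be told apart for it.

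Tlr3 and Wdfy1 were the shared genes among 31 tested genes of the TLR3 and TRIF pathway; none of the 31 was called higher. The list's median log2 difference was -0.13 (all genes tested 0.01), with 21 of 31 below zero; it was -0.24 in controls and -0.07 after pneumonia. The kinase Tbk1, at -0.29 (adjusted p = 0.054), and Map3k7, which encodes TAK1, at -0.28 (adjusted p = 0.0741), did not pass. Neither did any of 16 other Toll-like receptors and adaptors (median -0.06) or of 19 cytosolic nucleic acid sensors (median -0.06). Over all autosomal genes tested 1.67% were shared. At that share lists of this size, here and below, hold few shared genes or none. A list with none or a single one is no result about the list.

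The levels of Tlr3, Wdfy1 and 10 further shared genes in each library are shown in the plot of CPM by group. It sets chromosome 8 genes beside genes of other chromosomes.

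**Figure D2:**
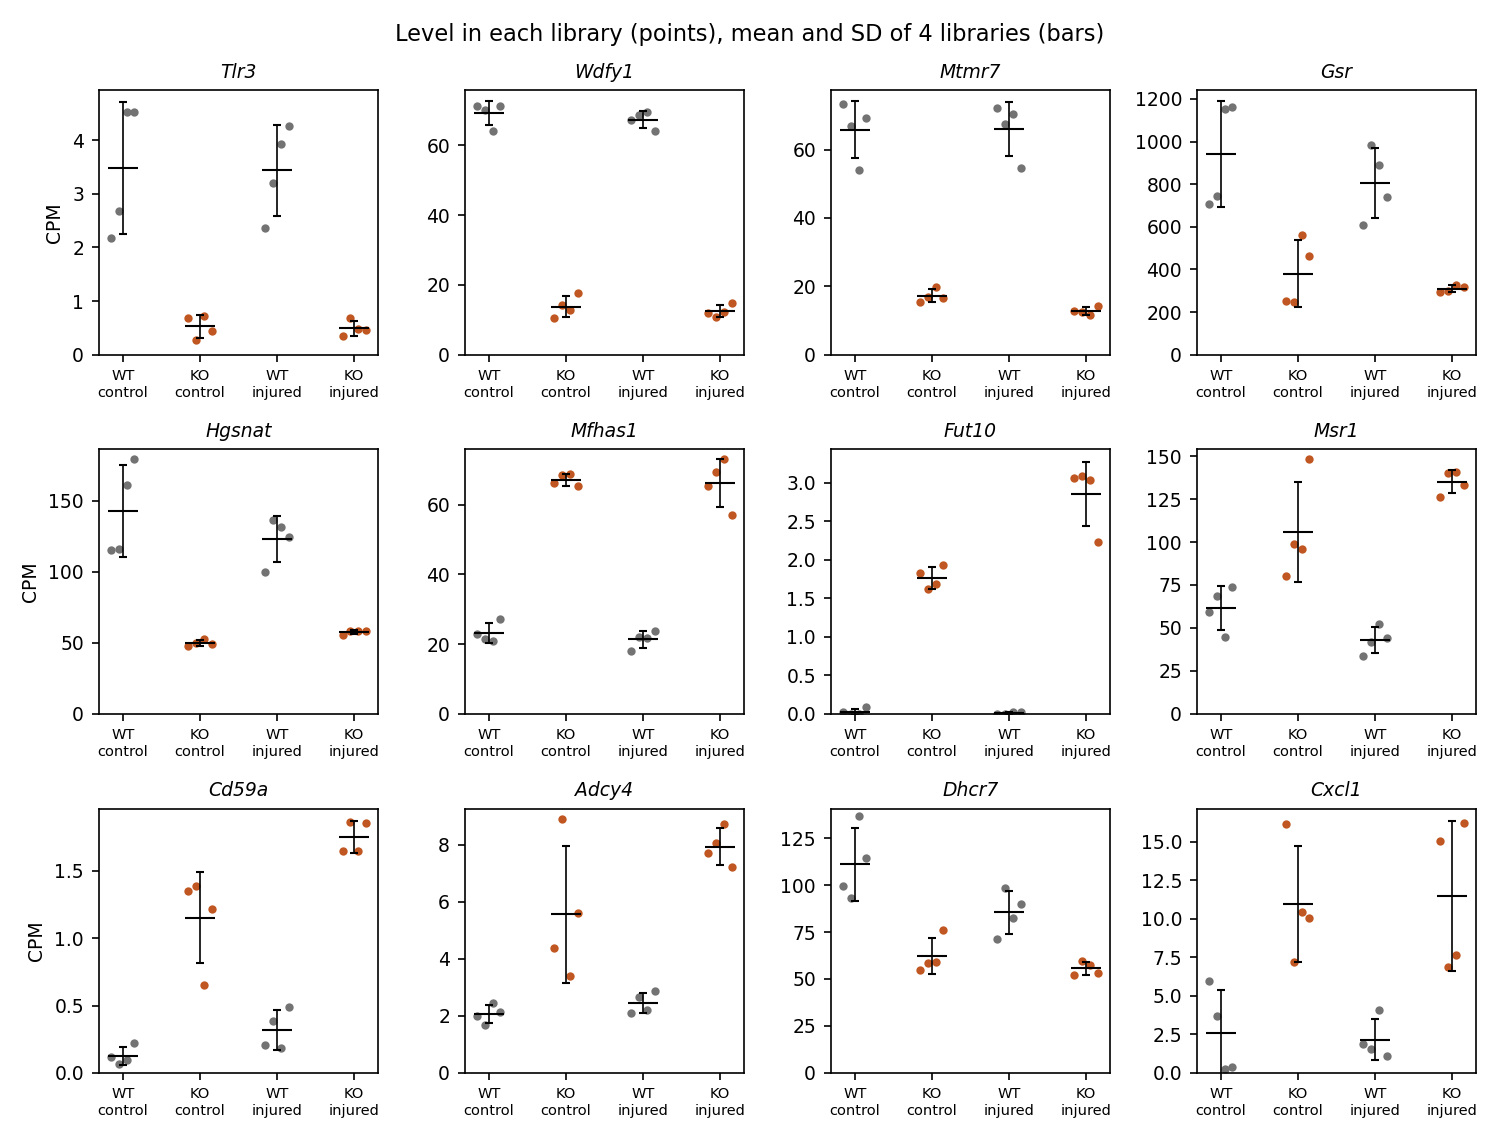
CPM of 12 shared genes in each of 16 libraries (points; WT grey, TLR3-KO orange), with the mean and SD of 4 libraries (bars), each panel on its own linear axis from 0. In 11 of the 12 genes no TLR3-KO library overlaps a WT library. In Dhcr7 the groups overlap only across states. The 12 genes are not typical of the shared genes, as only 43 of all 200 shared genes had no such overlap.

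Chromosome 8, which carries Tlr3, held 26 shared genes of 680 tested (3.82%), against 174 of 11308 on the other autosomes (1.54%). Within 10 Mb of Tlr3, 13 of 47 tested genes were shared (27.7%, against 1.57% of autosomal genes farther away), 6 higher and 7 lower. A run of 24 shared genes among 107 tested (22.4%) reached from AI316807 to Hpgd, chr8:22462614-56321043 in mm10, a stretch of 33.9 Mb. The rest of chromosome 8 held 2 shared genes of 573 (0.349%), Lyl1 and Klhl36. The limits of the run are its first and last shared gene, so the shares inside and outside it are fixed by the calls and describe them only. Within the run 10 genes were higher and 14 lower. In 16 the genotypes did not overlap (background 0.45% of autosomal genes tested), a contrast that follows from the selection of shared genes. The median size of the log2 difference was 1.26, against 0.64 for shared genes on other chromosomes.

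**Figure D3:**
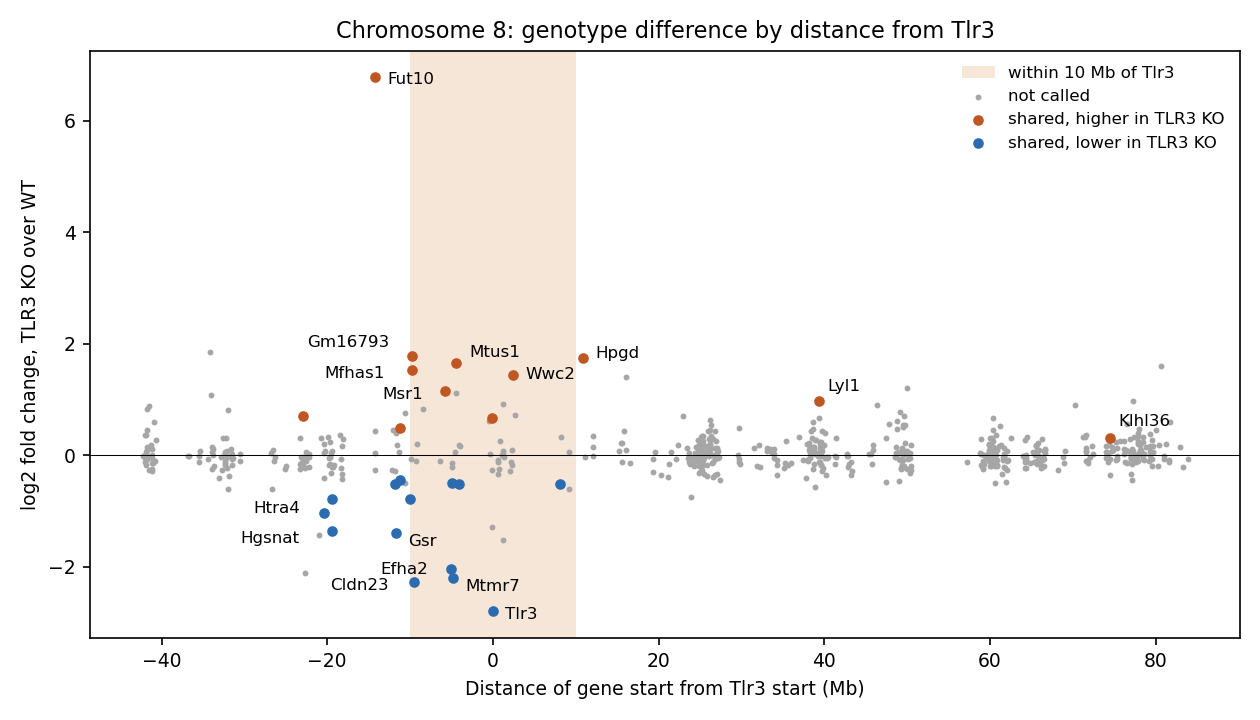
Log2 fold change of TLR3-KO over WT across both states for the tested genes of chromosome 8, by distance of the gene's start from the start of Tlr3 in Mb (orange higher, blue lower, grey not called; shading marks 10 Mb to either side). Shared genes crowd between 22.9 Mb before and 10.9 Mb after Tlr3, and 2 lie beyond.

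Among the genes that were lower in this run, Mtmr7 (chr8:40551095-40634797, minus strand), a phosphoinositide phosphatase of the myotubularin family, was at 73.3, 66.8, 54.1 and 69.2 CPM in the WT controls and 15.4, 16.9, 19.9 and 16.6 CPM in the TLR3-KO controls. It was at 72.0, 67.4, 70.3 and 54.5 CPM in the WT injured and 12.7, 12.5, 11.6 and 14.3 CPM in the TLR3-KO injured libraries. Every TLR3-KO library was below 20 CPM and every WT library above 54 CPM, with a log2 difference of -2.21 (SE 0.10, adjusted p = 7.4e-10). Efha2 (now Micu3), a regulator of the mitochondrial calcium uniporter, ranged over 1.06 to 2.85 CPM in WT and 0.253 to 0.687 CPM in TLR3-KO, a difference of -2.04 (SE 0.25, adjusted p = 0.000221). Cldn23, a claudin, ranged over 0.548 to 1.64 CPM in WT and 0.0471 to 0.472 CPM in TLR3-KO, a difference of -2.27 (SE 0.38, adjusted p = 0.0058), with no overlap.

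Gsr (chr8:33652523-33698163, plus strand), glutathione reductase, which regenerates reduced glutathione, was the most abundant of the 13 genes that were lower by 2-fold or more. It was at 706, 744, 1150.3 and 1163 CPM in the WT controls and 252, 247, 559.6 and 465 CPM in the TLR3-KO controls. It was at 609, 982, 890.1 and 739 CPM in the WT injured and 293, 301, 326 and 319 CPM in the TLR3-KO injured libraries. All TLR3-KO libraries were below all WT libraries, although TLR3-KO controls 3 and 4 were near the lowest WT injured library. Its log2 difference was -1.39 (SE 0.16, adjusted p = 0.000132), -1.38 in controls and -1.40 after pneumonia. Gsr was the shared gene among 27 tested antioxidant and glutathione genes, whose median was -0.11 with 20 of 27 below zero (-0.01 in controls and -0.24 after pneumonia); Slc7a11, the cystine transporter, was at -0.92 (adjusted p = 0.148), Txnrd1 at -0.42 (adjusted p = 0.145) and Sod2 at -0.48 (adjusted p = 0.151).

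Hgsnat, also lower, is the acetyltransferase of heparan sulfate breakdown. It was at 115, 116, 161 and 179.7 CPM in the WT controls and 47.9, 50.0, 53.0 and 49.3 CPM in the TLR3-KO controls. After pneumonia it was at 100, 137, 132 and 125 CPM in the WT injured and 55.3, 58.5, 58.3 and 58.3 CPM in the TLR3-KO injured libraries. The TLR3-KO libraries lay within 47.9 to 58.5 CPM and all WT libraries at about 100 CPM or more, a log2 difference of -1.35 (SE 0.10, adjusted p = 4.12e-07). Asah1, acid ceramidase, ranged over 477 to 586 CPM in WT and 305 to 416 CPM in TLR3-KO, a difference of -0.51 (SE 0.08, adjusted p = 0.00232). Aga, aspartylglucosaminidase, changed by -0.51 (SE 0.07, adjusted p = 0.00112), with overlap of the genotypes in controls. Vps37a, a subunit of the ESCRT-I sorting complex, was lower, at -0.49 (SE 0.08, adjusted p = 0.0069). It overlaps Mtmr7 on the opposite strand. Since the strand setting of the counting is not given, it is not known how reads were assigned where the genes overlap.

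The higher genes of the run were led by Fut10 (chr8:31187331-31261738, plus strand), a member of the fucosyltransferase family. It was at 0.0168, 0, 0 and 0.0822 CPM in the WT controls and 1.82, 1.62, 1.69 and 1.93 CPM in the TLR3-KO controls. It was at 0, 0, 0.0228 and 0.0189 CPM in the WT injured and 3.06, 3.09, 3.03 and 2.23 CPM in the TLR3-KO injured libraries. Reads over Fut10 were close to absent in WT, with 6 counts over 8 libraries and 0 in 4 of them, against 780 counts in TLR3-KO; the ratio of pooled counts was 133 (exact 95% interval 61 to 364, counting error only). The fitted log2 difference of 6.78 (SE 0.41, adjusted p = 2.65e-08) depends on how counts of 0 are treated. The call stood in each of the 16 fits that left out a library and in the 9 other fits.

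Mfhas1 (chr8:35587798-35679449, plus strand), a leucine-rich repeat GTPase, was at 22.8, 21.6, 20.8 and 27.3 CPM in the WT controls and 66.1, 68.5, 68.7 and 65.4 CPM in the TLR3-KO controls. It was at 17.9, 22.1, 21.9 and 23.8 CPM in the WT injured and 65.3, 69.4, 73.1 and 57.1 CPM in the TLR3-KO injured libraries. TLR3-KO libraries were all above 57 CPM and WT libraries all below 28 CPM, and the difference was 1.54 (SE 0.08, adjusted p = 2.79e-09). Gm16793, a non-coding gene that starts beside Mfhas1 on the other strand, was also higher, at 1.79 (SE 0.30, adjusted p = 0.0058). How reads were assigned where it overlaps Mfhas1 is likewise not known.

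Msr1 (chr8:39581685-39642673, minus strand), the class A scavenger receptor of macrophages, was at 59.1, 68.4, 44.8 and 74.1 CPM in the WT controls and 80.2, 99.1, 96.0 and 148 CPM in the TLR3-KO controls. It was at 33.4, 41.6, 52.3 and 44.2 CPM in the WT injured and 126, 139.9, 141 and 133 CPM in the TLR3-KO injured libraries. All TLR3-KO libraries exceeded all WT libraries, but the difference was 0.69 in controls and 1.63 after pneumonia, and the interaction had an unadjusted p of 0.0012 and an adjusted p of 0.235. Over both states the difference was 1.16 (SE 0.17, adjusted p = 0.00143). Wwc2, a scaffold of the Hippo pathway, ranged over 7.31 to 13.2 CPM in WT and 19.2 to 38.0 CPM in TLR3-KO, a difference of 1.45 (SE 0.18, adjusted p = 0.000356).

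Mtus1, a microtubule-associated protein, differed by 1.66 (SE 0.26, adjusted p = 0.00297) with no overlap of the genotypes. Hpgd, which inactivates prostaglandins, was higher by 1.75 (SE 0.33, adjusted p = 0.0114); its TLR3-KO range of 3.38 to 12.7 CPM overlapped the WT range of 1.08 to 5.03 CPM through WT injured replicate 4 and TLR3-KO control replicates 1 and 4. Fam149a, whose start lies 0.0589 Mb from that of Tlr3, was the nearest shared gene, at 1.58 to 2.02 CPM in WT and 2.55 to 3.79 CPM in TLR3-KO and a difference of 0.66 (SE 0.13, adjusted p = 0.0135).

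The remaining shared genes of the run lay 10.02 to 22.9 Mb before Tlr3 and were singled out after their values were seen, apart from Htra4. Htra4, a secreted serine protease, was at -1.04, Ppp1r3b, the glycogen-targeting subunit of protein phosphatase 1, at -0.78, and 4930444A02Rik (now Pomk), a kinase of dystroglycan glycosylation, at -0.78. Ppp2cb, a catalytic subunit of protein phosphatase 2A, was at -0.50 and Tmem66 (now Saraf), a brake on store-operated calcium entry, at -0.45. Leprotl1, a relative of the leptin receptor overlapping transcript, was higher by 0.49, as was AI316807 (now Smim19), by 0.71. Leprotl1 ranged over 51.4 to 59.96 CPM in WT and 76.8 to 88.7 CPM in TLR3-KO, a small difference with no overlap. Outside the run, Lyl1, a helix-loop-helix factor of blood cells, was at 0.97 and Klhl36 at 0.30. Both were also singled out after their values were seen. They were called in 8 and 4 of the 16 fits that left out a library.

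Away from chromosome 8, 174 genes were shared, 96 higher and 78 lower, and 17 of them were in the core of 33. Cd59a, on chromosome 2, encodes a membrane inhibitor of the complement attack complex. It was at 0.117, 0.0685, 0.0985 and 0.219 CPM in the WT controls and 1.35, 1.39, 0.654 and 1.22 CPM in the TLR3-KO controls. It was at 0.207, 0.387, 0.183 and 0.491 CPM in the WT injured and 1.65, 1.86, 1.65 and 1.85 CPM in the TLR3-KO injured libraries, which is 78 counts over the WT and 494 over the TLR3-KO libraries. All TLR3-KO libraries were above all WT libraries, with a difference of 2.73 (SE 0.28, adjusted p = 3.28e-05).

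Adcy4, on chromosome 14, encodes an adenylyl cyclase, an enzyme that makes cyclic AMP. It was at 1.98, 1.69, 2.46 and 2.14 CPM in the WT controls and 4.36, 8.90, 3.39 and 5.59 CPM in the TLR3-KO controls. It was at 2.10, 2.65, 2.22 and 2.85 CPM in the WT injured and 7.69, 8.05, 8.73 and 7.21 CPM in the TLR3-KO injured libraries. The genotypes did not overlap and differed by 1.51 (SE 0.17, adjusted p = 0.000132). Arhgap22, a GTPase-activating protein of Rac, ranged over 1.76 to 4.06 CPM in WT and 5.77 to 12.5 CPM in TLR3-KO without overlap, a difference of 1.42 (SE 0.18, adjusted p = 0.000412). Cd101, an immunoglobulin-family surface protein of myeloid cells named here after its values were seen, was higher by 0.82 (SE 0.11, adjusted p = 0.00106), and its genotypes overlapped only between TLR3-KO control replicate 4 and WT injured libraries.

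Among signalling genes, Cxcl1, a chemokine that draws neutrophils, was at 5.97, 3.70, 0.271 and 0.384 CPM in the WT controls and 16.1, 7.18, 10.5 and 10.1 CPM in the TLR3-KO controls. It was at 1.86, 1.52, 4.09 and 1.12 CPM in the WT injured and 15.1, 6.87, 7.65 and 16.2 CPM in the TLR3-KO injured libraries. The lowest TLR3-KO library stood above the highest WT library, while WT controls 1 and 2 stood well above WT controls 3 and 4. The difference was 2.17 (SE 0.50, adjusted p = 0.035), and it was called in 6 of the 16 fits that left out a library. Cxcl1 was the shared gene among 33 tested inflammatory cytokines and NF-kB targets, and it went against that list, whose median was -0.36 with 27 of 33 below zero. That median was -0.67 in controls and -0.08 after pneumonia, and the list's summed level in controls spanned 2932 to 8423 CPM in WT and 2586 to 4954 CPM in TLR3-KO. Clec4e at -0.79 (adjusted p = 0.0532), Il1rn at -0.63 (adjusted p = 0.0594) and Tnfaip3 at -0.67 (adjusted p = 0.144) did not pass.

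Among other immune genes, Casp1, the protease that matures interleukin-1 beta and named here after its values were seen, was at -0.46 (SE 0.08, adjusted p = 0.00881). C2, a complement protease also named after its values were seen, was at 1.26 (SE 0.27, adjusted p = 0.0264). Gbp6, an interferon-inducible GTPase, was at -1.48 (SE 0.33, adjusted p = 0.0286). Gbp6 was called in 7 of the 16 fits that left out a library. None of the 36 tested interferon-stimulated genes was shared, which is no result about them, as 1.67% of autosomal genes tested were shared. Their median was -0.17 with 30 of 36 below zero (-0.34 in controls and -0.07 after pneumonia). The 4 lowest unadjusted p in the list belonged to Oas1g (0.60), Ifih1 (-0.36), Parp14 (-0.48) and Stat2 (-0.24), with adjusted p at 0.272 or above.

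Metabolic genes were found in each direction. Dhcr7, the enzyme of the last step of cholesterol synthesis, was at 99.6, 93.3, 137 and 115 CPM in the WT controls and 55.0, 58.5, 59.2 and 76.1 CPM in the TLR3-KO controls. It was at 71.1, 98.5, 82.6 and 89.8 CPM in the WT injured and 52.1, 59.8, 57.6 and 53.4 CPM in the TLR3-KO injured libraries. TLR3-KO and WT did not overlap within either state, and the difference was -0.78 (SE 0.09, adjusted p = 0.00015). It was the shared gene among 22 tested cholesterol synthesis genes, whose median was -0.20 with 19 of 22 below zero (-0.35 in controls and -0.10 after pneumonia); Sc5d, which acts just before it, was at -0.36 (adjusted p = 0.0892) and Insig1 at -0.25 (adjusted p = 0.119). Ptgs1, cyclooxygenase-1, was higher by 1.48 (SE 0.27, adjusted p = 0.0114), and Gdpd1, a phosphodiesterase of lysophospholipids, was lower, at -0.81 (SE 0.14, adjusted p = 0.00734).

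Fbp1, fructose-1,6-bisphosphatase, had the second highest fitted difference, 5.10 (SE 1.01, adjusted p = 0.016), but it rests on few counts and few libraries. It was at 2.51, 0.610, 0.0211 and 12.7 CPM in the TLR3-KO controls and 0.376, 0.994, 0.169 and 0.649 CPM in the TLR3-KO injured libraries, with 550 of 782 TLR3-KO counts in TLR3-KO control replicate 4. WT libraries held 20 counts in all, 15 of them in WT control replicate 3, which exceeded TLR3-KO control replicate 3 and TLR3-KO injured replicate 3. It was called in all 16 fits that left out a library, but not in limma voom or with a replicate block.

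Regulators among the 15 highest genes were Gm98 (now Myrf), a membrane-bound transcription factor, at 1.59 (SE 0.28, adjusted p = 0.00881), Smad6, an inhibitor of bone morphogenetic protein signalling, at 1.29 (SE 0.28, adjusted p = 0.0273), and Uaca, a protein of the apoptosome pathway, at 1.46 (SE 0.28, adjusted p = 0.0137). The Gm98 libraries did not overlap between genotypes, at 0.861 to 3.12 CPM in WT and 3.69 to 10.4 CPM in TLR3-KO. Uaca in controls was at 0.520, 0.434, 0.443 and 0.603 CPM in WT and 0.687, 2.02, 0.590 and 0.713 CPM in TLR3-KO, where only TLR3-KO control replicate 2 stood far from WT. The 15 lowest genes further held Mmp13, an interstitial collagenase, at -1.30 (SE 0.29, adjusted p = 0.0315), the pseudogene 3000002C10Rik at -1.02 and Dnahc11 (now Dnah11), an axonemal dynein chain, at -0.91; Smad6, Mmp13, 3000002C10Rik and Dnahc11 were called in 7, 6, 8 and 8 of the 16 fits that left out a library.

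Of 19 tested circadian clock genes, Dbp, Tef and Cry2 were shared and higher. The list was put together after values were seen. The clock runs as a loop in which BMAL1 (gene Arntl) and CLOCK bind the E-box CACGTG and switch on the Per and Cry repressors and the related output factors Dbp and Tef. The promoters of the 3 called genes are shown for their E-box letters; since the list was put together after values were seen, the common direction of these 3 is no finding. Each is 250 bases before and 50 after a RefSeq start (GRCm38.p6), in lower case with CACGTG in capitals. They lie at chr7:45704997-45705296 (plus strand) for Dbp, chr15:81802423-81802722 (plus strand) and chr15:81811164-81811463 (plus strand) for Tef, and chr2:92434020-92434319 (minus strand) for Cry2.
Dbp: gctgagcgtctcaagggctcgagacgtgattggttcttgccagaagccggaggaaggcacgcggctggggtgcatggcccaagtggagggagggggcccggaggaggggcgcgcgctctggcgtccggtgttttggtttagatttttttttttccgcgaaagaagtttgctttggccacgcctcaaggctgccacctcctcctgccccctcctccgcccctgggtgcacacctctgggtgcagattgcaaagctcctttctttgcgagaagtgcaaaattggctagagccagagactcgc
Tef, first start: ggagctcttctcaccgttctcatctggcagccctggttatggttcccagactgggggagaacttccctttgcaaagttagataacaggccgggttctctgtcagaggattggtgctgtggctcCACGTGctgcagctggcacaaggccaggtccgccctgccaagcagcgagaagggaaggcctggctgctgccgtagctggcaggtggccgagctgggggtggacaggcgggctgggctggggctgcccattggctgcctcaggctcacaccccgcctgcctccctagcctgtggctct
Tef, second start: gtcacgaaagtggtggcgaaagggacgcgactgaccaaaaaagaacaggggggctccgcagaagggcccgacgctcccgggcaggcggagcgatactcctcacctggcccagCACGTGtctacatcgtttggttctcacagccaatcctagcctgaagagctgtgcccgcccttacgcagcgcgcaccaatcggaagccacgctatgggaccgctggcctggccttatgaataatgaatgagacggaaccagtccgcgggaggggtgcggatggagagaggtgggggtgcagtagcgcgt
Cry2: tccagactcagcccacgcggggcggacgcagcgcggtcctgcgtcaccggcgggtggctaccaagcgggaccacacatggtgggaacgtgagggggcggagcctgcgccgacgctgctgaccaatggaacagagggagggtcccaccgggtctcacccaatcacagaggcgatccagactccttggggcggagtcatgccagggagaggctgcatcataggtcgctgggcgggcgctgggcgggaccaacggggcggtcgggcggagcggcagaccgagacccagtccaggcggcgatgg
Each Tef window holds 1 CACGTG, at -127 and -138 from the start, and the Dbp and Cry2 windows hold 0 in these bases. CACGTG reads the same on both strands; it occurs in 7.15% of 32851 promoter windows of this length, in 10.7% of 169 windows of the 124 shared genes with an entry, and in 5 of 25 windows of 17 clock genes. The D-box motif TTATGTAA or its reverse TTACATAA, searched on both strands, occurs in 0.938% of all windows in 0 of the 169 and in 2 of the 25 clock gene windows. A match is a description of these letters only.

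Dbp was at 1.06, 1.23, 1.30 and 1.40 CPM in the WT controls and 2.92, 3.94, 6.89 and 4.16 CPM in the TLR3-KO controls. It was at 1.94, 2.90, 2.90 and 3.08 CPM in the WT injured and 5.32, 7.86, 6.10 and 6.56 CPM in the TLR3-KO injured libraries. Within each state all TLR3-KO libraries were above all WT libraries, and the difference was 1.49 (SE 0.17, adjusted p = 0.00015). Tef ranged over 32.7 to 37.8 CPM in WT controls and 57.7 to 87.6 CPM in TLR3-KO controls, and over 27.3 to 63.5 and 55.9 to 69.8 CPM after pneumonia, where the genotypes overlapped; its difference was 0.67 (SE 0.15, adjusted p = 0.0265). Cry2 differed by 0.57 (SE 0.12, adjusted p = 0.0265), with no overlap inside either state. Tef and Cry2 were each called in 11 of the 16 fits that left out a library. Dbp overlaps Sphk2 and Cry2 overlaps D930015M05Rik on the other strand.

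The other clock genes did not pass. Arntl, on the opposite arm of the loop, was at -0.56 (adjusted p = 0.0606), with 20.4 to 24.7 CPM in WT controls, 10.2 to 15.5 CPM in TLR3-KO controls and overlapping ranges after pneumonia. Per3 was at 0.64 (adjusted p = 0.198) and Nr1d1 at 0.43 (adjusted p = 0.154). The median of the list was -0.01, with 8 of 19 above zero. As the plot of clock genes shows, the shared members and Arntl had their larger differences in controls.

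**Figure D4:**
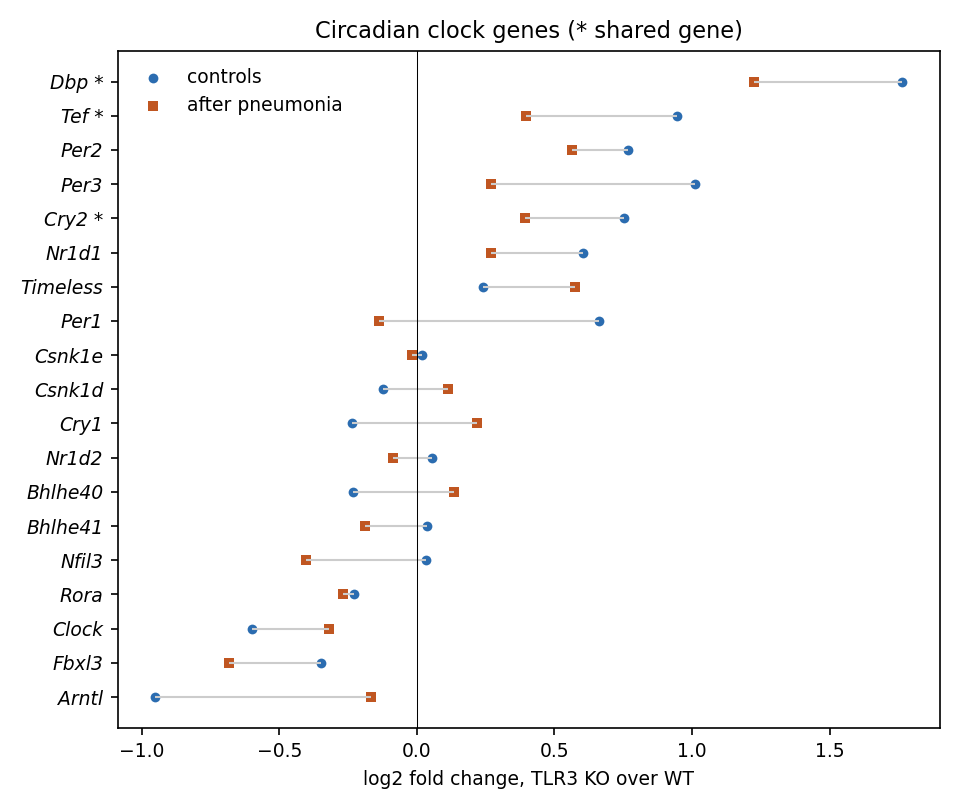
Log2 fold change of TLR3-KO over WT for 19 circadian clock genes in controls (blue circles) and after pneumonia (orange squares), ordered by the difference over both states. Dbp lies at 1.76 and 1.22, and Arntl at -0.95 in controls and -0.17 after pneumonia.

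Genes that mark other cells were called singly. Hopx, a marker of flat alveolar epithelium, was higher by 0.82 (SE 0.14, adjusted p = 0.00734), at 1.94 to 3.92 CPM in WT and 3.58 to 6.75 CPM in TLR3-KO. The 15 epithelial markers, none of them at 0 in all libraries, had a median difference of 0.82 (12 above zero), 0.12 in controls and 1.59 after pneumonia. Their summed level ran from 86.0 to 160.1 CPM in WT controls, 138 to 176 CPM in TLR3-KO controls, 94.5 to 125 CPM in WT injured and 156 to 222 CPM in TLR3-KO injured libraries, and Cdh1 made up 46.8% of it. The part of epithelial RNA in the differences was not tested, and in such bulk samples more cells of a type and more RNA per cell cannot be told apart. Ager, at 1.13 (adjusted p = 0.125), and the surfactant gene Sftpb, at 1.43 (adjusted p = 0.123), did not pass over both states.

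Mmp8, neutrophil collagenase, was higher by 0.82 (SE 0.16, adjusted p = 0.0137), at 16.7 to 28.0 CPM in WT and 24.2 to 51.8 CPM in TLR3-KO. The median over 12 tested neutrophil markers was -0.22 with 5 above zero (0.29 in controls and -0.01 after pneumonia), and Elane and Prtn3 were at 0 in all libraries. Cxcr1, a chemokine receptor of neutrophils, went the other way, at -0.79 (SE 0.12, adjusted p = 0.00297), with 22.1 to 42.3 CPM in WT, 13.02 to 25.8 CPM in TLR3-KO and no overlap inside either state. Summed neutrophil markers reached 109.8 to 529 CPM in WT injured and 148 to 383 CPM in TLR3-KO injured libraries, overlapping ranges, and their part in either difference was not tested. Fcrls, an Fc receptor-like scavenger receptor, was higher by 1.68 (SE 0.41, adjusted p = 0.0463) at 0.0822 to 0.268 CPM in WT and 0.0927 to 1.08 CPM in TLR3-KO, and was called in 3 of the 16 fits that left out a library. It was the shared gene among 20 tested genes of recruited and interstitial macrophages, whose median was 0.33 with 13 above zero (0.61 in controls and 0.11 after pneumonia); Tmem119 (1.01), C1qc (0.84) and C1qa (0.80) did not pass.

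No gene was shared among 27 alveolar macrophage identity genes (median 0.04), 25 lipid handling genes (-0.04), 16 genes of MHC class II presentation (0.35), 10 macrophage markers (0.00), 9 dendritic cell markers (0.62), 16 T and NK cell markers (0.19), 6 B cell markers (0.50) or 7 erythroid markers (-0.43). A list of this size without a shared gene is no result about it, as 1.67% of autosomal genes tested were shared. Several of these medians over both states join unlike values. MHC class II presentation was at 0.74 in controls and -0.10 after pneumonia. The T and NK cell markers were at 0.98 in controls and -0.73 after pneumonia, and the B cell markers at 1.12 in controls and -0.10 after pneumonia. Erythroid markers were at 0.86 in controls and -2.02 after pneumonia. Their summed level was 11.4 to 151 CPM in WT controls and 41.4 to 495 CPM in TLR3-KO controls, and after pneumonia 331 to 710.0 CPM in WT and 73.8 to 199.5 CPM in TLR3-KO, where the genotypes did not overlap; its part in the other differences was not tested. Dendritic cell markers were at 0.87 in controls and 0.38 after pneumonia. The 40 cell cycle genes had 0 shared members with 39 of 40 above zero and a median of 0.31, which was -0.12 in controls and 0.73 after pneumonia. Among 15 tested genes known to differ between mouse strains, Wdfy1 was the shared one (median -0.14). The plot of gene lists sets all of these side by side.

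**Figure D5:**
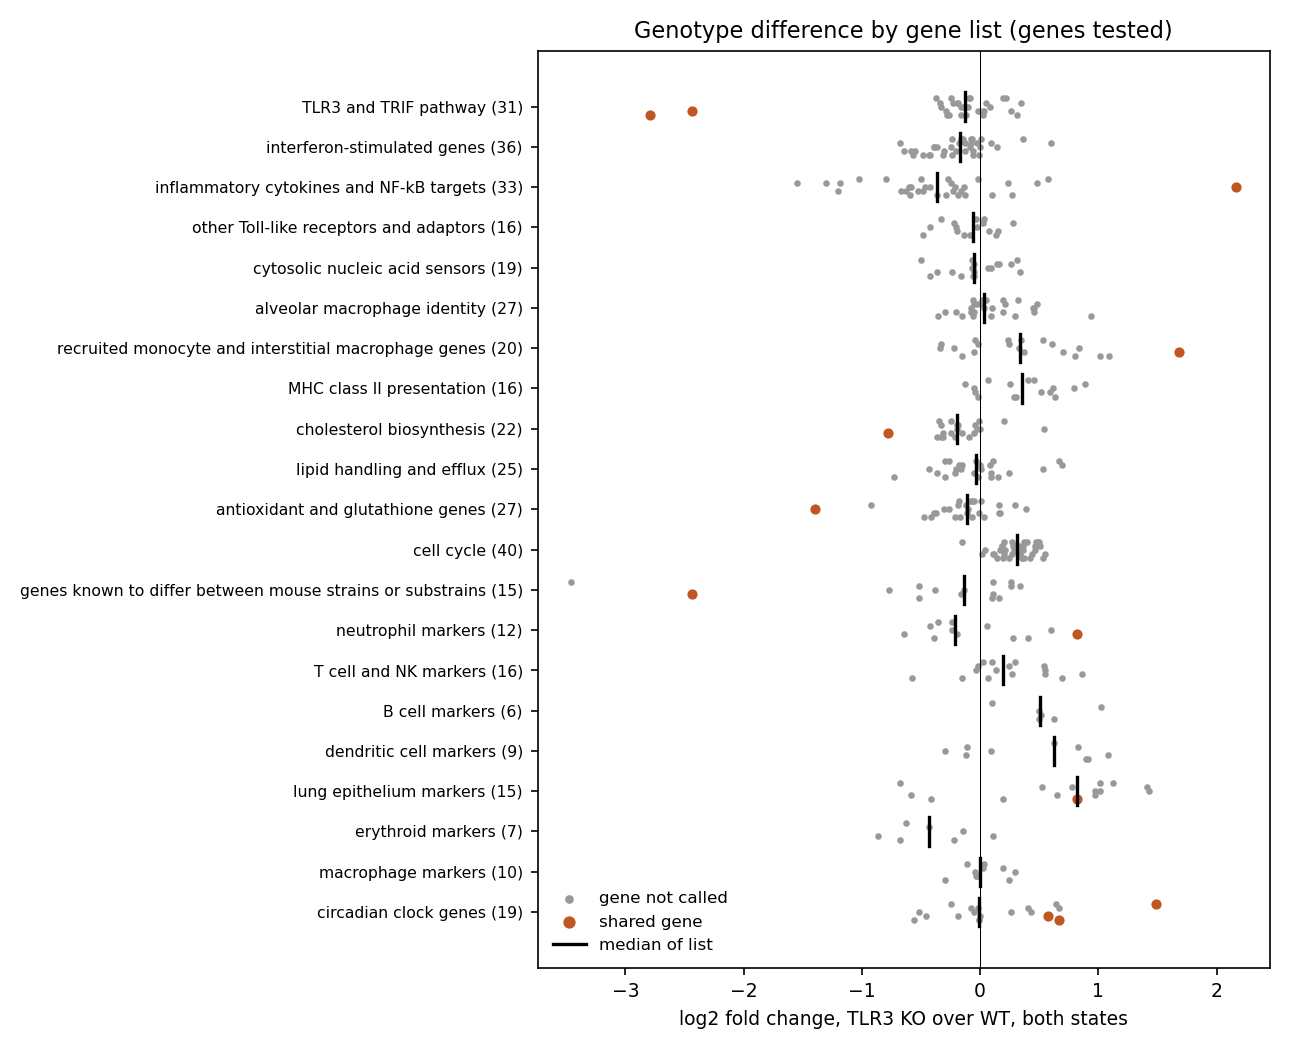
Log2 fold change of TLR3-KO over WT across both states for each tested gene of 21 lists (number tested in brackets), with shared genes in orange and the list's median as a bar. List medians run from -0.43 to 0.82, each list with 0 to 3 shared genes; the grey point at -3.46 is Erdr1, which passed the test but is annotated on the X chromosome.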

How the data were processed

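RNA of macrophages from bronchoalveolar lavage was measured in 16 libraries (TruSeq mRNA preparation, paired-end reads, per the labels' protocols). The deposited table holds whole-number counts per gene symbol, made by the authors with HTSeq, per the table's name; the submitters' processing notes name mm10, TopHat2 2.0.13 and Bowtie2 2.2.1. Its 16 columns exceed the 15 samples that the series text counts, and each was matched to a library by name.

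A filterByExpr step at a minimum count of 10 removed 10704 of 23159 genes, and TMM factors ran from 0.896 to 1.07. Differences were fitted with edgeR 4.0.16 in R 4.3.3 (quasi-likelihood test, Benjamini-Hochberg adjustment, biological coefficient of variation 0.249), with state as a covariate for the shared effect and with 4 groups for the states. The fit was also run on simulated data of independent libraries with a common spread for all genes. Those data hold no controls that deviate together and no libraries with Xist, so the run says nothing on these features. CPM are counts scaled to a common library total, without TMM factors. Positions are from GENCODE M21 or RefSeq (mm10), found for 22931 symbols.

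Members, gene lists and the naming rule were chosen with earlier results of these data known. The rule took the 15 highest and 15 lowest shared genes with a mean of 1 CPM or more in a genotype, all shared genes within 10 Mb of Tlr3, up to 4 genes per list and 5 by interaction p; genes outside it are said to be chosen after their values were seen. Libraries of the same number deviated together in controls (correlations 0.617 to 0.66 over genes) and not after pneumonia (-0.537 to 0.151). In controls 6 of 8 libraries were most like the library of their own number in the other genotype. A split of controls 1 and 2 from controls 3 and 4 could give such correlations too. Whether the numbers pair single libraries was not tested. Alternatives were RLE factors, DESeq2 1.42.0, limma 3.58.1 voom, other filters, replicate blocks, single libraries left out, the 3 libraries with Xist left out or modelled, and stricter rules for sharing. Drawing and tables used Python 3.11.15, pandas 2.3.3, numpy 2.4.6 and matplotlib 3.10.9.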

Additional observations from a re-analysis of the deposited data

Results flagged for a closer look

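Within groups of 4 libraries, 20 of 324 pairs of a named gene and a group (6.17%) had 1 library far from the other 3, with a gap past Dixon's 95% critical value. Chance gives about 1 in 20 such groups. A single library stood high for Fam149a in TLR3-KO control replicate 3 (3.79 CPM, the others 2.55 to 2.68 CPM), Fbp1 in WT control replicate 3 (0.369 CPM, the others 0 to 0.0548 CPM) and Gm11545 in WT control replicate 2 (4.46 CPM, the others 3.64 to 3.67 CPM). The same held for Lyl1 in WT control replicate 3 (0.763 CPM, the others 0.386 to 0.434 CPM), Sc5d in TLR3-KO injured replicate 4 (146 CPM, the others 132 to 134 CPM) and Sftpb in TLR3-KO control replicate 4 (1.45 CPM, the others 0.484 to 0.569 CPM). High libraries were also found for Smad6 in WT control replicate 3 (5.96 CPM, the others 4.53 to 4.77 CPM), Sms in TLR3-KO injured replicate 4 (24.3 CPM, the others 18.5 to 19.1 CPM) and Tbk1 in WT control replicate 4 (187 CPM, the others 163 to 165 CPM). One more high library was Uaca in TLR3-KO control replicate 2 (2.02 CPM, the others 0.590 to 0.713 CPM). A single library stood low for Cd101 in TLR3-KO control replicate 4 (17.3 CPM, the others 25.1 to 26.2 CPM), Cldn18 in WT injured replicate 1 (0.466 CPM, the others 0.718 to 0.756 CPM), Dbp in WT injured replicate 1 (1.94 CPM, the others 2.90 to 3.08 CPM) and Dnahc11 in WT injured replicate 2 (2.98 CPM, the others 5.10 to 5.44 CPM). Low libraries were also found for Fut10 in TLR3-KO injured replicate 4 (2.23 CPM, the others 3.03 to 3.09 CPM), Hgsnat in TLR3-KO injured replicate 1 (55.3 CPM, the others 58.3 to 58.5 CPM), Hpgd in WT control replicate 1 (1.09 CPM, the others 1.89 to 1.97 CPM) and Ifih1 in TLR3-KO injured replicate 3 (22.6 CPM, the others 26.7 to 27.0 CPM). Low values further belonged to Map3k7 in TLR3-KO injured replicate 1 (72.6 CPM, the others 79.7 to 80.6 CPM) and Parp14 in TLR3-KO control replicate 3 (11.4 CPM, the others 15.7 to 16.5 CPM). The directions and calls of these genes without each library are part of the fits that left out single libraries.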

How the results depend on the processing

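Directions of the shared genes are fixed by the rule on the same libraries and are not counted here. The number of shared genes was 613 with DESeq2, 130 with a replicate block of 4 levels, 68 without TLR3-KO controls 1, 2 and 3, 54 with the female share of RNA as a covariate, 18 when each state had to pass, 8 by the larger p of the states and 559 with controls 1-2 and 3-4 as separate levels, an alternative chosen after seeing the data. With a block of replicate numbers within states it was 198, of which 137 were among the 200. Leaving out single libraries gave 94 to 591, with counts past 1.5-fold without WT control replicate 2 (120), WT injured replicates 1 (591), 2 (94) and 3 (104), TLR3-KO control replicates 1 (112) and 2 (121) and TLR3-KO injured replicates 1 (117), 2 (95) and 3 (120).

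In controls the 87 genes became 146 with RLE factors, 781 with DESeq2, 894 with the replicate block, 15 without TLR3-KO controls 1, 2 and 3 and 10 in a fit on the 8 control libraries. The range was 17 (without WT control replicate 1, or 2) to 467 (without TLR3-KO control replicate 2), with 432 without WT control replicate 3, 378 without WT injured replicate 1, and 30 to 46 without WT control replicate 4, WT injured replicate 2, TLR3-KO control replicates 1, 3 or 4 or any TLR3-KO injured library. After pneumonia the 77 became 444 with DESeq2, 27 at 5 CPM or more, 46 with the replicate block and 155 in a fit on the 8 injured libraries. The range was 17 (without TLR3-KO injured replicate 2) to 450 (without WT injured replicate 4), with 43 without WT control replicate 2 and 18 to 31 without WT injured replicates 1, 2 or 3 or TLR3-KO injured replicates 1 or 3. The interaction's 0 became 98 with DESeq2 and ran from 0 to 0 without single libraries. Tlr3 ran from -2.85 to -2.67. Snhg8, not called, turned from 0.16 to -0.044 with the female share and ran from -0.00078 (without TLR3-KO control replicate 4) to 0.32 without single libraries. The causes were not tested. Where an arm kept 1 library, its spread was taken from the other groups. Genes under 1 CPM rest on few counts, which limits their fold changes.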

Other observations

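The other 2 genes that passed over both states are annotated on the X chromosome. Erdr1, described as a small secreted factor but annotated here as a transcribed pseudogene, was at 98.5 to 285 CPM in WT and 8.63 to 22.2 CPM in TLR3-KO. Its log2 difference was -3.46 (SE 0.26, adjusted p = 4.12e-07) without overlap. Erdr1 lies in the region shared by the X and Y chromosomes. It is also in the list of genes known to differ between mouse strains, so strain background and the knockout cannot be told apart for it. Sms, spermine synthase, was at 21.5 to 34.9 CPM in WT and 17.4 to 31.4 CPM in TLR3-KO, a difference of -0.51 (SE 0.11, adjusted p = 0.0267); without TLR3-KO controls 1, 2 and 3 it did not pass (-0.42, adjusted p = 0.192), nor in 8 of the 16 fits that left out a library. On chromosome 8, Pdgfrl did not pass over both states, at 1.12 (SE 0.30, adjusted p = 0.0674), although its 0.111 to 0.510 CPM in WT and 0.568 to 0.801 CPM in TLR3-KO did not overlap.

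The genes nearest the threshold were Selenbp1 (0.76), Rbms3 (0.73) and 9030418K01Rik (0.61) inside it at an adjusted p of 0.0478, and 2700078E11Rik (-0.34, adjusted p = 0.0511), Dram1 (-0.36) and Fes (0.35, both with adjusted p = 0.0513) outside it.

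The 5 lowest interaction p-values had an adjusted p of 0.235 each. They belonged to Gata3, at 1.63 in controls and -1.06 after pneumonia, Snhg8, at 1.23 and -0.88, Gm11545, at 1.26 and -0.10, and the epithelial genes Cldn18, at 0.06 and 2.81, and Sftpb, at 0.12 and 2.79. Cldn18 reached 7.11 CPM at most and Sftpb 3.07 CPM, both in TLR3-KO libraries.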
